A study of Mus musculus with 37 samples.

Results

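The mouse genes named Zfp600 to Zfp999 are numbered zinc finger genes, and their RNA was followed here in oocytes, eggs and early embryos with and without maternal BAP1. Members were chosen by symbol and by a level of at least 1 FPKM (fragments normalized to transcript length and library size) in at least 2 of the 26 total RNA libraries. Of 55401 genes in the table, 174 had such a symbol and 129 of these were members. Of the other 45, 39 reached 1 FPKM in no library and 6 in 1 library. Among the members, 58 reached 1 FPKM in all 26 libraries and 11 in only 2 or 3; of these 11, Zfp810, Zfp971 and Zfp972 had the highest maxima, at 2.15, 1.99 and 1.98 FPKM. A gene can pass such a filter through 1 genotype only: 12 members reached 1 FPKM in fewer than 2 knockout libraries and 6 in fewer than 2 control libraries. The main counts are therefore also given for the 111 members that passed in at least 2 libraries of each genotype.

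Bap1 encodes a deubiquitinase that removes ubiquitin from histone H2A. Knockout females were Gdf9-iCre, Bap1 flox/flox, in which the Gdf9 promoter drives iCre in oocytes, and control females were Bap1 flox/flox, so both carried floxed alleles. Fully grown oocytes, MII eggs, late 1-cell embryos and late 2-cell embryos had 2 control and 3 knockout libraries each, and early 2-cell embryos had 3 of each. Embryos came from these eggs and wild-type sperm, B6 at the early stages and PWK at embryonic day 6.5, so embryos from knockout eggs lacked maternal Bap1 and carried a paternal wild-type allele. At embryonic day 6.5, poly(A) libraries were made from epiblast and visceral endoderm (2 control and 2 knockout each) and from extraembryonic ectoderm (1 control and 2 knockout). Nothing in the sources used here says whether replicates came from separate animals or how many were pooled, so p-values measure the spread between these libraries, which may be technical. Maternal age was not given.

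C2H2 zinc fingers are small folds that bind DNA, usually in tandem arrays in which each finger reads a few bases. Many genes of this numbering also encode a KRAB box, a domain that binds the corepressor TRIM28 (KAP1). TRIM28 recruits the histone methyltransferase SETDB1 and heterochromatin protein 1, and in early embryonic cells this machinery silences endogenous retroviruses and protects genomic imprints. KRAB zinc finger genes multiplied by repeated duplication and often stand in clusters.

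The members were of both kinds. The start of a KRAB box was found in the longest open reading frame of 84 members and not in 43, and 2 members, Zfp640 and Zfp939, have no protein-coding model in GENCODE M21 (GRCm38). The search pattern also matched 0.913% of gene models without a finger, and a member without a match may still hold a KRAB box. The 84 KRAB members had a median of 12 fingers, and the other 45 a median of 6. No finger of the searched pattern was found in 10 members, among them the abundant Zfp750 and Zfp957. The median level over the 26 libraries was 2.11 FPKM for KRAB members and 5.41 FPKM for the others. Clusters, meaning at least 4 members whose neighbouring starts lie under 500 kb apart, held 54 members, 48 of them with a KRAB match. The largest held 16 members, all with a KRAB match, at chr4:145670685-147848366, and the next held 11 at chr17:21383748-22456689. In the chromosome 4 cluster a median of 68% of a member's exonic words of 50 bases also occurred in other annotated transcripts, against 3.2% in the chromosome 17 cluster. Values of single chromosome 4 members may therefore hold fragments of near-identical copies and are uncertain.

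The genotype labels were checked against Bap1. In the 5 early stages it lay between 16.3 and 29.9 FPKM in control and between 3.76 and 11.7 FPKM in knockout libraries, with no overlap at any stage; at embryonic day 6.5, with a paternal allele present, it checks nothing. Within-group spread was widest in early 2-cell embryos (median SD over all genes 0.258 on the log2 scale, against 0.111 in MII eggs), and the test by limma weighted stages accordingly. Summed markers of 2-cell embryos (5 of 6 listed genes found, among them Zscan4c and Zscan4d) were listed for the late 2-cell stage but were higher in control early than in control late 2-cell libraries. They ran from 183 to 228 FPKM in control and 61.4 to 143 in knockout early 2-cell embryos, and from 79.2 to 82 against 227 to 308 in late 2-cell embryos. Summed oocyte markers (7 genes) ran from 478 to 503 FPKM in control and 776 to 904 in knockout late 2-cell embryos. Summed granulosa and cumulus cell markers (9 genes) were 6.99 to 8.62 against 2.85 to 3.68 FPKM in oocytes and were lower in the knockout without overlap at all 5 stages. Cyp19a1 made up most of the oocyte sum, at 5.16 to 6.72 against 1.52 to 1.87 FPKM, while Foxl2 was at most 0.101 FPKM in oocytes and 0 in all MII libraries. In late 2-cell embryos the sums were 11.2 to 11.4 against 3.1 to 3.26 FPKM. There Cyp19a1 was only at 0.352 to 0.751 against 0.353 to 0.447 FPKM, and Foxl2 at 0.0926 to 0.24 against 0.198 to 0.665. Both genes overlapped between genotypes, so other listed genes made up most of that gap. The part of these markers in the results on members was not tested.

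In control oocytes 96 of the 129 members had a mean of at least 1 FPKM and 33 of at least 10 FPKM. The most abundant were Zfp655 at 121 ± 7.77 FPKM (mean ± SD, n = 2), Zfp957 at 64.8 ± 1.25 and Zfp750 at 51 ± 2.47, none with a KRAB match, and the same 3 led in MII eggs and late 1-cell embryos. In early 2-cell controls the KRAB gene Zfp979 of the chromosome 4 cluster, at 106 ± 20.9 FPKM (n = 3), came second to Zfp655 at 148 ± 11.4. In late 2-cell controls 3 chromosome 4 members led, Zfp982 at 81.7 and 89.9 FPKM, Zfp979 at 78.8 and 74.4 and Zfp978 at 66.9 and 83.2; the order of these 3 is within their spread. The highest control mean fell in late 2-cell embryos for 52 members, in late 1-cell embryos for 31, in early 2-cell embryos for 20, in oocytes for 14 and in MII eggs for 12.

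Many members were lower in the maternal knockout at each early stage. In oocytes 43 of the 129 (33.3%) were lower and 0 higher by limma at an adjusted p under 0.05, where 9.97% of all 15184 genes tested were lower and 3.91% higher. At an unadjusted p under 0.05, 65 members passed in oocytes, and only Zfp609, Zfp821 and Zfp869 of these were higher. No share of all genes is given at unadjusted thresholds, here or below, so such counts only describe the members. In MII eggs 36 members were lower and 4 higher, beside 10.2% and 6.57% of all genes. In late 1-cell embryos 51 (39.5%) were lower and 3 higher, beside 10% and 7.6%. In early 2-cell embryos 34 were lower and 3 higher, beside 7.28% and 6.2%. In late 2-cell embryos 32 (24.8%) were lower and 13 (10.1%) higher, beside 17.2% and 17% of all genes. The share of members called lower was thus above that of all genes at each stage, by the smallest ratio at the late 2-cell stage, and the share called higher was below it.

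The median log2 fold change over the 129, from oocytes to late 2-cell embryos, was -0.21, -0.14, -0.24, -0.26 and -0.20, beside 0.00, 0.00, 0.01, 0.00 and 0.03 over all genes. Over the 111 members that passed the filter in both genotypes, 40, 32, 46, 31 and 27 were lower and 0, 4, 3, 3 and 10 higher, beside 8.79, 8.87, 8.88, 6.8 and 16.9% of 13037 genes lower. Scaling each library to TPM gave 20 lower and 5 higher members in early 2-cell embryos, and centring each library on its median gave 27 and 13 in MII eggs. Leaving out 1 library moved some counts: without the second control 26 members were called in oocytes, without either control 31 in late 1-cell embryos, and in early 2-cell embryos 22 without the first control, 23 without the second and 23 without the second knockout. In bulk RNA, fewer cells and less RNA per cell cannot be told apart, and FPKM cannot show a change in total RNA.

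Most of the lower calls were on KRAB members. In oocytes 38 of the 84 KRAB members were lower, with a median log2 fold change of -0.29, and 5 of the other 45, with a median of -0.01. In the next 4 stages 29, 41, 29 and 22 of the KRAB members and 7, 10, 5 and 10 of the others were lower. Of the 111 members that passed in both genotypes 70 had a KRAB match, and 36, 26, 37, 27 and 19 of these and 4, 6, 9, 4 and 8 of the other 41 were lower. The difference between these groups was not tested. Of the 98 members with less than 20% shared sequence, 31, 23, 39, 19 and 23 were lower across the 5 stages, and of the 31 with more, 12, 13, 12, 15 and 9.

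**Figure D1:**
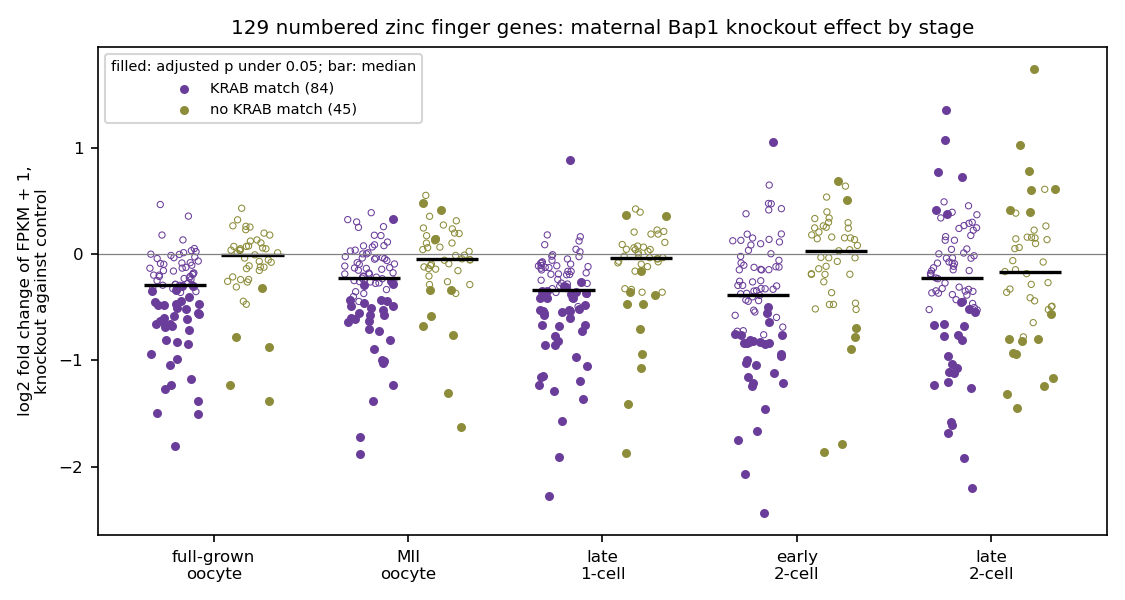
Log2 fold change of FPKM + 1, knockout against control (y axis), for the 129 members at 5 stages (x axis), with KRAB members in purple and the others in olive; filled points had an adjusted p under 0.05 by limma and bars mark medians. The purple medians lie below 0 at every stage, at -0.29, -0.23, -0.34, -0.38 and -0.23, and the late 2-cell stage has 13 filled points above 0.

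Lower calls recurred between stages. Of the 129 members, 9 were lower at all 5 stages (Zfp617, Zfp677, Zfp770, Zfp820, Zfp947, Zfp949, Zfp978, Zfp980 and Zfp984), 11 at 4 stages, 20 at 3 and 51 at none. Those at all 5 stages were 6.98% of the members, beside 1.34% of all genes, and those at none 39.5% beside 68.6%. Zfp947 passed the filter through control libraries only; among the 111 members that passed in both genotypes 8 were lower at all 5 stages, 7.21% beside 0.989%. The 28 members lower in both oocytes and MII eggs were 65.1% of the oocyte calls and 77.8% of the MII calls, beside 70.7% and 69.2% for all genes. The 36 shared by oocytes and late 1-cell embryos were 83.7% and 70.6%, beside 68.9% and 68.6%, and the 15 shared by early and late 2-cell embryos were 44.1% and 46.9%, beside 37% and 15.7%. The members' share of lower calls was larger at each stage, and more calls can repeat between stages for that reason alone. These shares therefore cannot show that recurrence was particular to members, and the differences from all genes were not tested. Each stage has its own libraries and controls, but the first 3 stages largely hold RNA stored in the oocyte.

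Zfp820, a KRAB gene with 12 fingers (ENSMUSG00000069743.5, chr17:21816885-21845772, minus strand), had the lowest fold change of all members at 4 of the 5 stages. Its level was 3.64 and 4.49 FPKM in control and 0.496, 0.444 and 0.407 in knockout oocytes. In late 1-cell embryos it was 5.91 and 6.21 against 0.347, 0.431 and 0.598, and in early 2-cell embryos 15.6, 11.4 and 8.05 against 2.45, 0.762 and 0.949. Every knockout library lay below every control library of its stage. The log2 fold change of FPKM + 1 was -1.80 ± 0.18 (SE; adjusted p 4.01e-07, limma) in oocytes, -1.88 ± 0.16 in MII eggs, -2.28 ± 0.18 in late 1-cell, -2.43 ± 0.32 in early 2-cell and -1.68 ± 0.30 in late 2-cell embryos (adjusted p 0.000193). Of its exonic words 3.2% occur elsewhere.

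Zfp677 and Zfp947, of the same chromosome 17 cluster, were also lower without overlap at all 5 stages. Zfp677 (16 fingers, KRAB, 0% shared words, chr17:21383748-21399265, plus strand) was at 1.94 and 2.27 FPKM in control and 0.144, 0.0497 and 0.116 in knockout oocytes (-1.49 ± 0.12, adjusted p 1.27e-08). Its gap was smaller at the late 2-cell stage, at 7.87 and 9.7 against 5.79, 4.34 and 5.22 FPKM (-0.68 ± 0.20, adjusted p 0.00976). That call was lost in 5 of 12 other settings, among them without the second control and with the replicate block (adjusted p 0.0763). Zfp947 (9 fingers, no KRAB match, chr17:22144359-22166190, minus strand) was at 3.62 and 2.5 FPKM in control and 0, 0.154 and 0.15 in knockout late 1-cell embryos (-1.87 ± 0.16), and at 3.66, 5.28 and 1.53 against 0.0289, 0.325 and 0.125 in early 2-cell embryos (-1.86 ± 0.27). It reached 1 FPKM in no knockout library of the 5 stages, and 20% of its words occur in other transcripts.

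On chromosome 4, Zfp978 (3 fingers, KRAB, chr4:147361303-147391004, plus strand) was abundant and strongly lowered. Control oocytes held 18.7 and 18.7 FPKM and knockout oocytes 5.64, 6.27 and 6 (-1.50 ± 0.10). Late 2-cell controls held 66.9 and 83.2 FPKM and knockouts 14.4, 16.3 and 15.8 (-2.20 ± 0.17, adjusted p 9.34e-09). No knockout library reached the lowest control of its stage, but 77.4% of the gene's words occur in other transcripts, such as Zfp600, so the reading may be of several copies. Zfp984 (11 fingers, 54.5% shared) was at 5.48 and 5.73 FPKM in control and 1.21, 1.53 and 1.92 in knockout oocytes, and at 16.1, 12.8 and 15.2 against 3.73, 1.73 and 3.03 in early 2-cell embryos (-2.06 ± 0.24). Zfp981 (40% shared) was most lowered in late 2-cell embryos, at 29.4 and 33.7 against 5.96, 10.2 and 7.17 FPKM (-1.92 ± 0.21). Zfp979 was at 46.6 and 47.4 against 15.2, 23.1 and 21 in oocytes (-1.23 ± 0.13), and did not pass in late 2-cell embryos, at 78.8 and 74.4 against 64, 51 and 66.5 FPKM (-0.34 ± 0.21, adjusted p 0.236).

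Outside the clusters, Zfp710 (11 fingers, no KRAB match, chr7:80024814-80094173) was at 4.93 and 5.41 FPKM in control and 1.21, 0.965 and 0.855 in knockout MII eggs (-1.62 ± 0.12, adjusted p 1.83e-09). In early 2-cell embryos the genotypes overlapped, at 0.262, 1.01 and 1.08 against 0.348, 0.112 and 0.317 FPKM (adjusted p 0.188). Zfp949 (KRAB, 0% shared) had its widest gap in late 2-cell embryos, at 10.1 and 13.4 FPKM in control and 3.68, 2.93 and 2.89 in knockout libraries (-1.60 ± 0.18, adjusted p 1.29e-06).

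**Figure D2:**
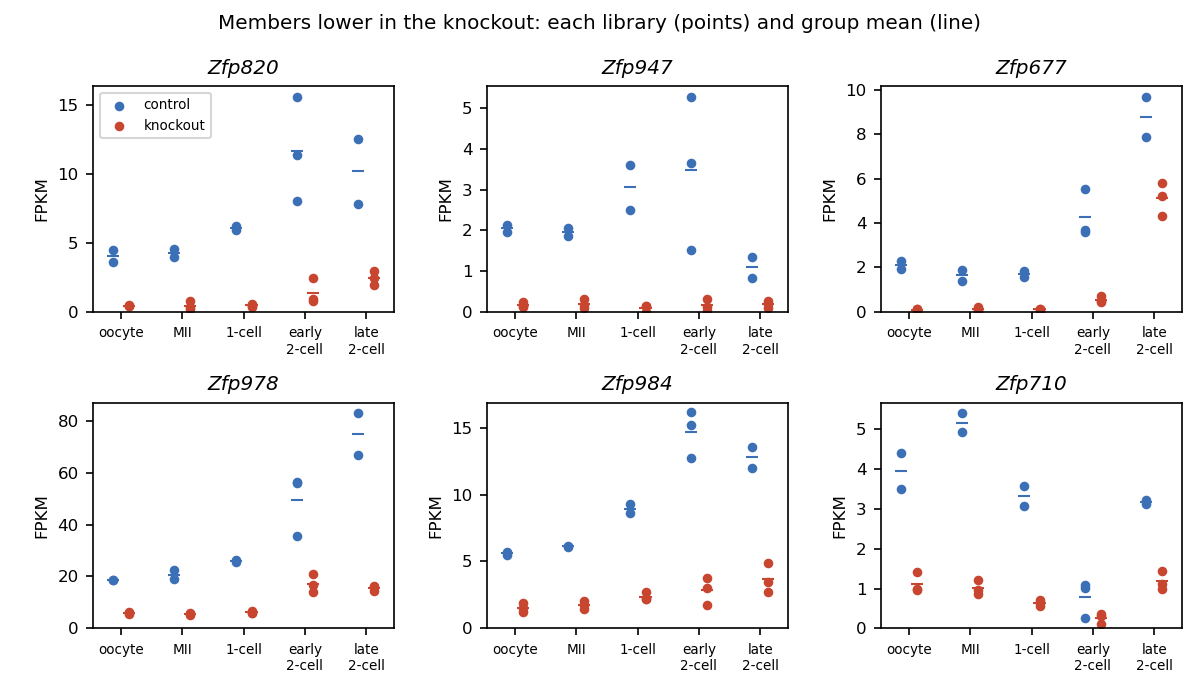
FPKM (y axis) of 6 members in each control (blue) and knockout (red) library at 5 stages (x axis), with group means as short lines. Knockout points lie below all control points of their stage in every panel except Zfp710 in early 2-cell embryos.

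Lowered members lay both in the largest clusters and outside clusters. Of the 16 chromosome 4 members, 6, 7, 9, 12 and 8 were lower from oocytes to late 2-cell embryos and 0 were higher by limma at any stage, with medians of -0.25, -0.25, -0.36, -0.82 and -0.43; at an unadjusted p under 0.05, 9, 9, 11, 15 and 8 passed in either direction. Of the 11 on chromosome 17, 7, 5, 8, 7 and 5 were lower and 0 higher by limma at any stage, with medians of -0.35, -0.29, -0.53, -0.64 and -0.45, and 10, 7, 8, 9 and 5 passed unadjusted. The 75 members outside clusters had 22, 15, 25, 12 and 13 lower calls. Of the 6 members of a cluster at chr7:42579783-43618285, 4, 4, 4, 1 and 2 were lower. A second chromosome 7 cluster at chr7:127244274-127885996, with 3 KRAB matches among 6 members, had 0, 1, 1, 0 and 3 lower calls and Zfp689 higher in late 2-cell embryos. The 6 members on chromosome 8 had 1, 1, 1, 0 and 1 lower calls, with Zfp869 higher in late 1-cell and Zfp866 in early 2-cell embryos. The 5 on chromosome 13 had 2, 2, 3, 1 and 0 and the 4 on chromosome 2 1, 1, 0, 1 and 0, and Zfp708, Zfp931 and Zfp972 of these were higher in late 2-cell embryos. Of the members that passed in both genotypes, 6, 6, 8, 11 and 6 of 14 on chromosome 4 and 6, 4, 7, 6 and 4 of 10 on chromosome 17 were lower. Among all 70 KRAB members that passed so, 36, 26, 37, 27 and 19 were lower. The difference of these clusters from other KRAB members was not tested. The size of the change differed between neighbours: in early 2-cell embryos the chromosome 17 members ran from -2.43 for Zfp820 to -0.14 for Zfp758, which did not pass (adjusted p 0.768).

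**Figure D3:**
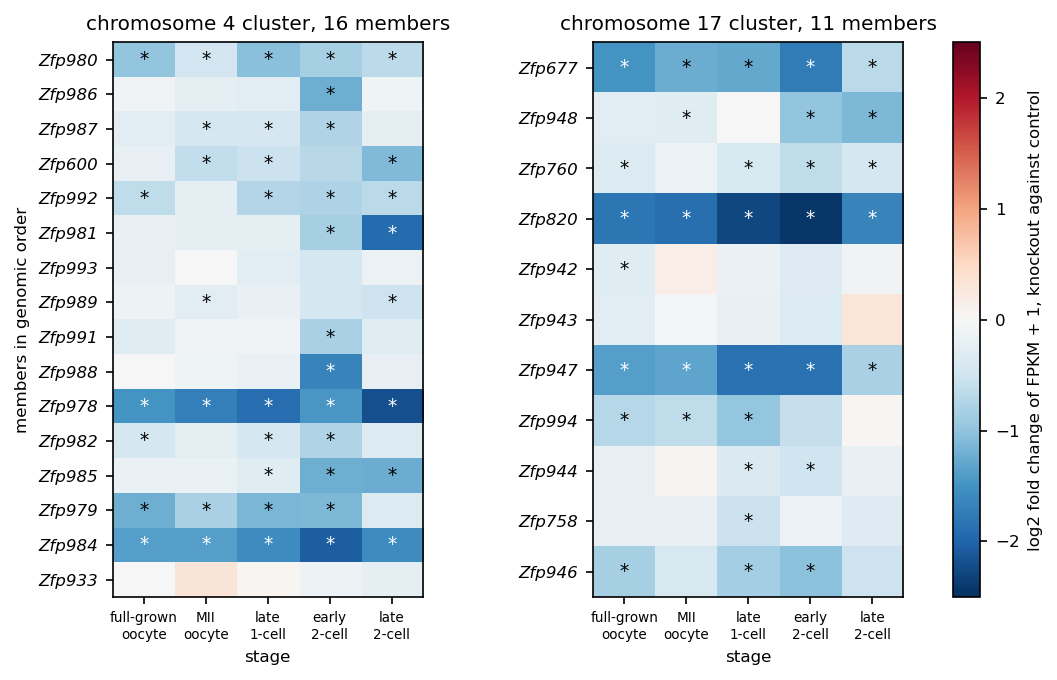
Log2 fold change of FPKM + 1, knockout against control (colour; blue is lower in the knockout), of the 16 chromosome 4 and 11 chromosome 17 members in genomic order (rows) at 5 stages (columns); asterisks mark an adjusted p under 0.05 by limma. Zfp978, Zfp980 and Zfp984 on chromosome 4 and Zfp677, Zfp820 and Zfp947 on chromosome 17 carry an asterisk at every stage.

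Promoters of the chromosome 4 and 17 clusters were compared because many of their members were lowered. RefSeq (GRCm38.p6) gave 300 bases, from 250 before to 50 after the start, for 108 of the 129 members. Left out or not matched were Zfp608, Zfp609, Zfp612, Zfp623, Zfp646, Zfp647, Zfp654, Zfp703, Zfp706, Zfp707, Zfp750, Zfp865, Zfp870, Zfp930, Zfp934, Zfp960, Zfp978, Zfp986, Zfp989, Zfp991 and Zfp992. The longest sequence held on the gene's strand by at least 7 chromosome 4 and 2 chromosome 17 members, sizes set after the promoters were read, was the 13 bases TATTGGGCGGGTC. Searched on both strands, it was in 7 of the 11 chromosome 4 members with a promoter, in 2 of the 11 on chromosome 17 and in 0 of 61 outside clusters. It was in 0.0407% of 27025 genes with a promoter, 11 in all. It contains ATTGG, the CCAAT box on the other strand, and GGGCGG, the GC box, which was in 38.2% of all these genes and 50% of members. The 9 members that hold it are shown 5′ to 3′ on the gene's strand, because they show how alike the cluster promoters are around it. The capitals mark the 13 bases, and each stretch ends at or before the RefSeq start site. The GENCODE M21 model of Zfp947 starts further upstream, so the stretch of Zfp947 lies inside that model.

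Zfp979: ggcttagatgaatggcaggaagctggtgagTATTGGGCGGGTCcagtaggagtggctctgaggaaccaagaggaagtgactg
Zfp980: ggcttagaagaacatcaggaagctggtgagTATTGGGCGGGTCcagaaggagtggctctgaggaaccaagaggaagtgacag
Zfp982: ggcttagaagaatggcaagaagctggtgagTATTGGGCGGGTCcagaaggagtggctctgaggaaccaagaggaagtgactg
Zfp984: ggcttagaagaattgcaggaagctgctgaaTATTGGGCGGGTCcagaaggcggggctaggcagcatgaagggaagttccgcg
Zfp985: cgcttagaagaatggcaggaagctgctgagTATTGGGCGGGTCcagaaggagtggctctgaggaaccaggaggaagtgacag
Zfp988: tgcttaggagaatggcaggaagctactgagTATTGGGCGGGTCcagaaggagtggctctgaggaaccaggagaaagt
Zfp600: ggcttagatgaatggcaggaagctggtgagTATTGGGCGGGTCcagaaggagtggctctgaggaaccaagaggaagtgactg
Zfp947: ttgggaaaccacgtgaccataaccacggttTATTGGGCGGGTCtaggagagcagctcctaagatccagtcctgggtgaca
Zfp994: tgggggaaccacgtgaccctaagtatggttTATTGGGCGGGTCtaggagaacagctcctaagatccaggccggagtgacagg

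These stretches are Zfp979 at chr4:147642531-147642612 (minus strand), Zfp980 at chr4:145670593-145670674 (plus strand), Zfp982 at chr4:147492303-147492384 (plus strand), Zfp984 at chr4:147809824-147809905 (minus strand), Zfp985 at chr4:147553178-147553259 (plus strand), Zfp988 at chr4:147305527-147305603 (plus strand), Zfp600 at chr4:146156729-146156810 (plus strand), Zfp947 at chr17:22165978-22166057 (minus strand) and Zfp994 at chr17:22225702-22225783 (minus strand). When the promoters of 300 bases were aligned, bases in gaps were not counted. Zfp979 was identical to Zfp985 at 91.5% of 284 aligned bases, to Zfp988 at 91.8% of 269 and to Zfp984 at 81.5% of 275. The stretches of Zfp947 and Zfp994 on chromosome 17 have another flank, with a cacgtg upstream. From oocytes to late 2-cell embryos, 6, 6, 8, 7 and 5 of these 9 genes were lower in the knockout, and 32, 24, 36, 22 and 21 of the 99 other members with a promoter. Of the 7 among the 9 that passed the filter in both genotypes, 5, 5, 6, 5 and 3 were lower. The sequence was picked with the calls known and the promoters are copies of one another, so the counts only describe them.

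Zfp820 does not hold the 13 bases in this window. Its promoter of 300 bases, aligned in the same way, was identical to that of Zfp947 at 84.8% of 250 aligned bases. It was identical to that of Zfp677 at 69.4% of 248. These counts are the bases left of the 300 once gaps were dropped, not the 250 bases before the start. No unrelated pair was aligned for comparison, so the 69.4% cannot show whether the promoters of Zfp820 and Zfp677 are alike. CACGTG, the E-box, reads the same on both strands and was in 8 of the 11 chromosome 17 promoters, in 13% of members and in 8.09% of all genes with a promoter. It is in capitals in the 250 bases before the start of Zfp820 (RefSeq, GRCm38.p6, chr17:21845760-21846009, minus strand), shown because this member was the most lowered.

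Zfp820: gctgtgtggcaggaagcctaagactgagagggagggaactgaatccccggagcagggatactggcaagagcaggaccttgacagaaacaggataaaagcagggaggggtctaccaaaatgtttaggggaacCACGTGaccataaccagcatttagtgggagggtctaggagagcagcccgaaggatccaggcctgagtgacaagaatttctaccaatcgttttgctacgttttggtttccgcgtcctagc

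CCAAT, searched on both strands, was in 63.9% of members with a promoter (71.2% of those with a KRAB match and 48.6% of the others) and in 41.1% of all genes. TATAAA was in 6.48% of members and 15.7% of all genes. The median number of CpG pairs in the 300 bases was 10 for KRAB members, 24 for the other members and 8 for all genes.

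Before the late 2-cell stage few members were higher in the knockout. Zfp609, a partner of the Integrator complex and of the cohesin loader NIPBL, was at 4.58 and 4.38 FPKM in control and 6.21, 6.47 and 6.2 in knockout MII eggs (0.41 ± 0.08, adjusted p 0.00067). It was also higher in late 1-cell (0.35 ± 0.09), early 2-cell (0.51 ± 0.15) and late 2-cell embryos (0.40 ± 0.14) and did not pass in oocytes (0.26 ± 0.09, adjusted p 0.058). The early 2-cell call was lost in 8 of 13 other settings, with the replicate block among them (adjusted p 0.0963). The late 1-cell call was lost in 3 of 12, among them without the first control. The late 2-cell call was lost in 7 of 12, among them without either control (adjusted p 0.223 and 0.0836), without the first or the third knockout and with the replicate block (0.169). In oocytes it passed without the second control (0.0142). Zfp644, a partner of the histone methyltransferases G9a and GLP, was at 5.69 and 7.06 against 8.19, 10.2 and 9.58 FPKM in MII eggs (0.48 ± 0.10) and was higher in late 1-cell embryos (0.36 ± 0.11). Its MII call was lost in 3 of 12 other settings, among them without the first control. Its late 1-cell call was lost in 6 of 12, among them without either control or without the first knockout (adjusted p 0.0938).

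Zfp932 and Zfp655 were higher in MII eggs by 0.33 ± 0.10 and 0.14 ± 0.04. Each call was lost in 5 of 12 other settings, among them without the second control and without the first or second knockout. That of Zfp932 was also lost without the first control. Zfp655 was then called lower in late 1-cell embryos. Zfp869, a KRAB gene of the chromosome 8 cluster, was at 1.65 and 1.53 FPKM in control and 3.13, 4.24 and 4.06 in knockout late 1-cell embryos (0.89 ± 0.20). Zfp839 was at 6.09, 6.7 and 6.47 against 9.31, 11.4 and 12.4 FPKM in early 2-cell embryos (0.69 ± 0.15). In both cases all knockout libraries lay above all controls.

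In late 2-cell embryos 13 members were higher in the knockout. The count was 5 without the first control and 6 with the replicate block, while the 32 lower calls became 27 in both cases. Summed oocyte markers and 2-cell markers, given above, were also higher in these knockout libraries, and their part was not tested. Zfp750, known as a regulator of epidermal differentiation, changed most, from 6.01 and 7.14 FPKM in control to 25.6, 22.7 and 24.5 in knockout libraries (1.74 ± 0.15, adjusted p 4.54e-08). At the early 2-cell stage it was at 48.6, 51.7 and 50.4 in control and 62.9, 68.9 and 59.4 in knockout libraries, above the late 2-cell libraries of the same genotype in each case. Zfp932, which binds endogenous retroviruses of the ERVK class, was at 15.8 and 12.6 against 28.6, 35.3 and 28.8 FPKM (1.07 ± 0.19), with 37% of its words shared. Zfp865 was at 1.48 and 1.85 against 3.81, 3.03 and 3.89 (0.78 ± 0.21). That call was lost in 3 of 12 other settings, among them with the replicate block (adjusted p 0.0617) and without the first control. Zfp655 was at 57.5 and 60.6 against 89.2, 93.4 and 89.9 FPKM (0.61 ± 0.08).

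Controls alone show how the members changed with development. From oocytes to MII eggs 2 members rose and 3 fell, beside 1.3% and 4.1% of all genes (5.39% in either direction). These were Zfp703, a transcriptional corepressor, at 0.50 ± 0.13 and Zfp706 at 0.40 ± 0.11, and Zfp980 at -0.55 ± 0.11, Zfp654 at -0.39 ± 0.10 and Zfp942 at -0.38 ± 0.08. All 5 calls were lost without the second oocyte control or the first MII control, 2 were kept without the first oocyte control and 3 without the second MII control, and TPM scaling kept only the 3 falls. From MII eggs to late 1-cell embryos 30 rose, 24 of them with a KRAB match, and 5 fell, beside 9.6% and 15.8% of all genes. Zfp979 went from 40.7 and 39.2 to 65.9 and 64.2 FPKM (0.69 ± 0.14), Zfp640 changed by 0.65 ± 0.19 and Zfp960 by 0.65 ± 0.13, while Zfp653 went from 22.3 and 21.4 to 14 and 12.9 FPKM (-0.66 ± 0.14) and Zfp710 and Zfp715 each fell by 0.51. The Zfp715 call was lost in 6 of 11 other settings, with -0.33 (adjusted p 0.256) without the second MII control and -0.36 (0.252) without the second late 1-cell control. The Zfp710 call was lost without these same libraries (adjusted p 0.0688 and 0.107), and that of Zfp640 without the first MII or first late 1-cell control (0.144 and 0.111). Centring gave 55 rises and 2 falls here, and shifted the median of all genes from -0.01 to 0.16; without the first or second late 1-cell control or the second MII control 16, 18 and 19 were called.

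Around genome activation the share of members called was 55.8% from late 1-cell to early 2-cell embryos, beside 47.2% of all genes, and 51.9% at the next step, beside 51.7%, where the members' share is close to that of all genes. From late 1-cell to early 2-cell embryos 38 rose and 34 fell, beside 18.1% and 29.1% of all genes, and of the 16 chromosome 4 members 12 rose and none was called lower. Zfp622, a factor in maturation of the large ribosomal subunit, went from 0.0619 and 0 to 8.84, 9.09 and 9.93 FPKM (3.32 ± 0.20), Zfp988 of the chromosome 4 cluster from 0.087 and 0.286 to 5.94, 6.5 and 5.93 (2.59 ± 0.16), and Zfp809 changed by 1.71 ± 0.30. Zfp866 fell from 11.6 and 12.9 to 0.339, 0.959 and 1.05 FPKM (-2.92 ± 0.18), and Zfp952 and Zfp791 changed by -2.75 ± 0.20 and -2.41 ± 0.17. TPM scaling gave 24 rises and 36 falls at this step and centring 46 and 26, which moved the median of all genes from -0.08 to -0.13 and 0.07.

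From the early to the late 2-cell stage 40 members rose and 27 fell in controls, beside 29.2% and 22.5% of all genes. Zfp775 rose from 2.78, 0.916 and 1.29 to 64.1 and 47.2 FPKM (4.46 ± 0.26), and Zfp707 and Zfp981 by 3.62 ± 0.28 and 3.42 ± 0.22. Zfp735 fell from 48.2, 47.6 and 41.7 to 3.88 and 3.88 FPKM (-3.26 ± 0.20), and Zfp750 and Zfp616 changed by -2.76 ± 0.17 and -2.57 ± 0.19. The split depended on scaling: TPM gave 28 rises and 32 falls and centring 29 and 39, with the median of all genes at -0.04 and -0.23 in place of 0.02.

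The knockout effect differed between successive stages mainly after the 1-cell stage, for members as for all genes. By the interaction test of limma 0 members differed from oocytes to MII eggs and 0 from MII eggs to late 1-cell embryos, beside 0% and 0.198% of all genes, with 10 and 19 members at an unadjusted p under 0.05. From late 1-cell to early 2-cell embryos 9 differed, beside 3.35% of all genes, with 4 effects moving up and 5 down beside 1.28% and 2.07%. From early to late 2-cell embryos 26 differed, beside 18.9%, with 15 up and 11 down beside 9.55% and 9.37%. The members' share here was close to that of all genes. Without the second late 2-cell control 15 effects moved up and 3 down at this last step, and without the first 9 and 10. In place of 9, 2 were called without the first early 2-cell control and 5 without either late 1-cell control or the second early 2-cell knockout. With the replicate block 2 were called at the first of these steps, and 8 up and 6 down at the second.

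Zfp622 was at 2.87, 0.729 and 2.96 FPKM in knockout early 2-cell embryos, below the controls given above (-1.79 ± 0.24), and at most 0.12 FPKM in any late 1-cell library. The effect differed by -1.83 ± 0.27 (adjusted p 0.00111, or 0.0519 at a pseudocount of 0.1). Zfp988 was at 1.95, 0.609 and 1.37 FPKM in knockout early 2-cell embryos and at 8.72, 8.87 and 7.44 against 9.92 and 9.49 in late 2-cell embryos. Its effect differed by -1.51 ± 0.22 at the first step (adjusted p 0.226 at a pseudocount of 0.1) and by 1.47 ± 0.26 at the second. Zfp866 was higher in knockout early 2-cell embryos, at 3.32, 2.82 and 1.91 FPKM (1.05 ± 0.21), and its effect differed by 1.17 ± 0.25 and -1.42 ± 0.29; the first was lost without the first early 2-cell control (adjusted p 0.0626) and with the replicate block (0.115).

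Zfp708 changed sign between the 2-cell stages. This KRAB gene, which represses RMER19B repeats, was lower in the knockout at the first 4 stages, with 31.6 and 34.3 against 16, 18.6 and 19 FPKM in oocytes and 52.8, 54.5 and 46.9 against 25.2, 28.2 and 32.1 in early 2-cell embryos (-0.83 ± 0.24, adjusted p 0.0269). The early 2-cell call was lost in 7 of 13 other settings, among them without the first or second library of either genotype (adjusted p at most 0.0959). In late 2-cell embryos controls held 11 and 10.5 FPKM and knockouts 36.5, 24.7 and 27.2 (1.36 ± 0.23, adjusted p 0.00012). The genotypes overlapped at neither stage, and the effect differed by 2.19 ± 0.34 (adjusted p 0.000105), past the threshold in each of 18 other settings. Of its words 94.9% occur in other transcripts, such as Gm28557, so the level cannot be assigned to Zfp708 alone. Zfp616 also changed sign, called lower in early 2-cell and higher in late 2-cell embryos (0.60 ± 0.18, adjusted p 0.0121 by limma). Members lower in at least 1 of the first 3 stages and higher in late 2-cell embryos were Zfp616, Zfp655, Zfp708, Zfp873 and Zfp931. Zfp791 was at 4.72, 5.73 and 3.67 FPKM in control and 6.7, 6.08 and 7.04 in knockout early 2-cell embryos and at 14.2 and 12.6 against 7.56, 4.7 and 5.61 in late 2-cell embryos, and the effect differed by -1.50 ± 0.28.

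**Figure D4:**
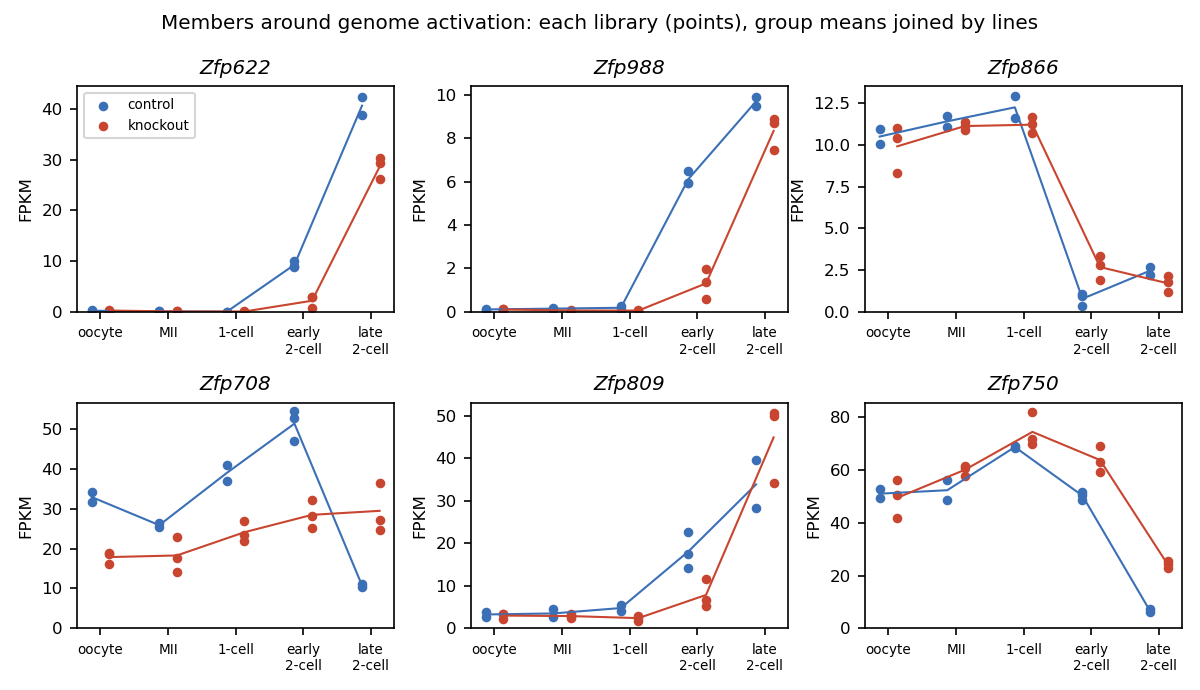
FPKM (y axis) of 6 members in each control (blue) and knockout (red) library at 5 stages (x axis), with lines through group means. In early 2-cell embryos the knockout points of Zfp622, Zfp988, Zfp708 and Zfp809 lie below the controls and those of Zfp866 above them, and in late 2-cell embryos those of Zfp708 and Zfp750 lie above the controls.

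The members known to bind or repress retroviral elements did not move as one. Zfp809, which silences retroviruses that use the proline primer binding site, was at 3.86 and 2.65 FPKM in control and 3.43, 3.29 and 2.28 in knockout oocytes (adjusted p 0.884). It was lower in late 1-cell (-0.77 ± 0.21) and early 2-cell embryos, at 22.6, 14.1 and 17.6 against 6.62, 5.24 and 11.7 FPKM (-1.15 ± 0.36, adjusted p 0.039), and did not pass in late 2-cell embryos, where 28.2 and 39.5 stood against 50.7, 34.1 and 49.9 and the ranges overlapped. The late 1-cell call was lost in 2 of 12 other settings, among them without the first control. The early 2-cell call was lost in 10 of 13, without any 1 of the controls or the first or second knockout among them. With the replicate block its adjusted p was 0.0598 by limma. Zfp819, which binds TRIM28 and represses endogenous retroviruses, was lower in oocytes (-0.60 ± 0.18), late 1-cell (-0.60 ± 0.19) and early 2-cell embryos (-1.04 ± 0.32), and did not pass in MII eggs (adjusted p 0.0692) or late 2-cell embryos (0.282). These 3 calls were lost in 8 of 11, 5 of 12 and 7 of 13 other settings: in oocytes without either control (adjusted p 0.224 and 0.104), in late 1-cell embryos without either control or the second knockout, and in early 2-cell embryos without the second or the third control or the first or second knockout. With the replicate block Zfp819 passed in MII eggs (0.0237) and not in oocytes (0.0501). Zfp961 was lower in oocytes, at 19.3 and 31.9 against 18, 17.2 and 18.6 FPKM (-0.45 ± 0.15, adjusted p 0.046), and did not pass at the other 4 stages. The change rested on the second control: without it the value was -0.10 (adjusted p 0.811), without the first control -0.80, and the call was lost in 10 of 12 other settings, with any 1 knockout left out and with the replicate block (0.0769) among them. Zfp708 and Zfp932 were described above.

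Of 23 corepressor and heterochromatin genes that KRAB proteins work with or that act beside them, 2, 2, 3, 1 and 10 were lower and 1, 0, 1, 3 and 5 higher from oocytes to late 2-cell embryos. Of all genes 9.97, 10.2, 10, 7.28 and 17.2% were lower and 3.91, 6.57, 7.6, 6.2 and 17% higher. Trim28 was at 45.9 to 47.9 FPKM in control and 48.3 to 53.9 in knockout oocytes (adjusted p 0.54) and at 45 to 53.3 against 30.7 to 31.7 in late 2-cell embryos (-0.64 ± 0.17). In late 1-cell embryos it was higher (0.32 ± 0.10, adjusted p 0.034 by limma). Zfp57, a KRAB gene that protects imprints, was at 161 to 171 against 358 to 417 FPKM in late 2-cell embryos (1.24 ± 0.10). It was also higher in early 2-cell embryos (0.50 ± 0.10) and lower in MII eggs (-0.16 ± 0.05) and late 1-cell embryos (-0.22 ± 0.06). Zfp445 moved the other way in late 2-cell embryos, at 15.2 FPKM in both controls against 6.28 to 9.20 in knockouts (-0.90 ± 0.20). Of the 150 genes Zfp1 to Zfp599 that passed the same filter, 32, 28, 36, 22 and 34 were lower and 3, 7, 6, 9 and 21 higher, with medians of -0.16, -0.07, -0.13, -0.07 and -0.11. The difference from the members was not tested.

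At embryonic day 6.5 no member passed between genotypes. Of the 112 members tested 0 were called by limma in epiblast and 0 in visceral endoderm, beside 0% and 0.00748% of all 13376 genes. At an unadjusted p under 0.05, 3 passed in epiblast (Zfp637, Zfp936 and Zfp989) and 0 in visceral endoderm. These are no more than that threshold alone would pass among 112 members. Zfp820 was at 0.739 and 2.62 FPKM in control and 1.6 and 2.75 in knockout epiblast, and Zfp978 at 0.946 and 2.24 against 2 and 4.6. Replicates of 1 group could lie far apart, as Zfp979 did in control epiblast at 5.81 and 31.8 FPKM, so the lack of calls with 2 libraries a group does not show that the genotypes were alike.

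Epiblast and visceral endoderm differed from each other in 40 members, with 29 higher and 11 lower in epiblast over both genotypes. Of all genes 20.3% were higher and 16.4% lower, 36.6% in all. The share of members called in either direction was close to that of all genes. Epiblast markers summed to 1055 to 1497 FPKM in epiblast and 49.2 to 166 in visceral endoderm, and visceral endoderm markers to 1.88 to 9.96 and 6922 to 8128. Zfp664 ran from 13.1 to 27 FPKM in epiblast and 2.52 to 6.77 in visceral endoderm (1.99 ± 0.34, adjusted p 0.00205, n = 4 libraries each). Zfp992 ran from 12.2 to 13.5 against 1.74 to 4.02 (1.91 ± 0.27) and Zfp647 from 5.89 to 9.48 against 0.684 to 1.65 (1.90 ± 0.25). None of these ranges overlap.

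In the other direction, Zfp948 of the chromosome 17 cluster ran from 0.98 to 6.39 FPKM in epiblast and 17.3 to 31.5 in visceral endoderm (-2.70 ± 0.41). Zfp977 changed by -1.93 ± 0.28 and Zfp672 by -1.51 ± 0.30. The count was 24 with the replicate block, 22 without a filter on low values, and 20, 25, 24 and 24 without each visceral endoderm library in turn. The 29 higher in epiblast became 12, 16, 15 and 14 without these, 17 without the second control epiblast library and 16 with the block. Zfp706, a small protein with 1 finger, was the most abundant member in all 3 lineages, at 122 and 179.7 FPKM in control epiblast and 120.0 and 117 in control visceral endoderm. Zfp622 came second in both, at 45 and 34.3 and 36.2 and 40.6, followed by Zfp639 in epiblast and Zfp637 in visceral endoderm. Zfp957, abundant in oocytes, was listed at 0 in all libraries of this day; the 2 library types were not tested against each other.

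**Figure D5:**
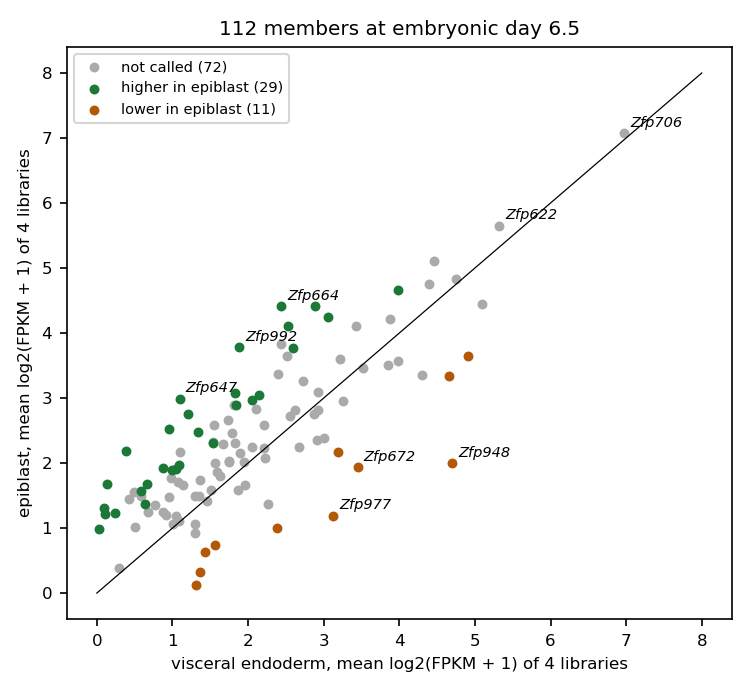
Mean log2(FPKM + 1) over 4 libraries in epiblast (y axis) against visceral endoderm (x axis) for the 112 members tested at embryonic day 6.5, with a line of equal levels. Green points (29) were higher and orange points (11) lower in epiblast at an adjusted p under 0.05 by limma; Zfp706 lies at the upper end near the line.

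In extraembryonic ectoderm, with 1 control library and so no test, Zfp706 was at 216 FPKM in control and 205 and 262 in knockout libraries, Zfp622 at 37.4 against 42.8 and 36 and Zfp936 at 33 against 39.6 and 26.7. Zfp820 was at 2.16 against 3.75 and 2.89 FPKM.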

How the data were processed

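Total RNA libraries of the 5 early stages (26) and poly(A) libraries of embryonic day 6.5 (11) were analysed from deposited tables of 55401 genes. The authors deposited FPKM values per gene, made with Trim Galore 0.6.6, STAR 2.7.9 and StringTie 2.1.7 on mm10, per the submitters' processing notes. Counts were not used, so the depth behind each value is unknown. FPKM summed to between 300668 and 430784 per total RNA library and 593705 and 704522 per poly(A) library. Of the other values deposited by the authors, the column of the first control epiblast library lists 1 gene at -1e-06, which was set to 0.

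Members and gene lists were chosen with earlier results of these data known. Genes that reached 1 FPKM in 2 or more of the libraries fitted were tested on log2(FPKM + 1) with limma 3.58.1 in R 4.3.3, two-sided, with Benjamini-Hochberg adjustment over all genes of a contrast and a threshold of 0.05. The 26 libraries were fitted together in 10 groups, with weights per stage, and the 8 epiblast and visceral endoderm libraries apart. A fold change on this scale understates that of low genes. Named genes are the members with the largest changes per contrast (up to 4 per direction between genotypes and 3 otherwise) that passed the test with a mean of at least 2 FPKM and, between genotypes and along steps, no overlap, and the 3 most abundant per stage, and 5 known retroviral repressors; other members were named after their values were seen. KRAB boxes and fingers were searched in open reading frames of GENCODE M21. Replicate numbers in the labels were tried as a block. Same-numbered early libraries had deviations that correlated between -0.077 and 0.142. With so few libraries a group this cannot show whether they shared a batch. Alternatives were a pseudocount of 0.1, no filter, TPM scaling, median centring, no weights, only the stages compared and leaving out each library. The method was tested on simulated data, where the share of false calls was above the threshold in late 1-cell and both 2-cell stages, and without weights exceeded the true calls in early 2-cell embryos. Python 3.11.15 was used for the rest.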

Additional observations from a re-analysis of the deposited data

Results flagged for a closer look

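For 9 members named here the knockout effect differed between successive stages, in 12 differences in all, by a test of the difference itself, limma's interaction contrast on the log2 scale. From late 1-cell to early 2-cell embryos the effect moved by 1.17 for Zfp866, 1.13 for Zfp952 and 1.07 for Zfp940, and by -1.83 for Zfp622, -1.51 for Zfp988 and -0.94 for Zfp986. From early to late 2-cell embryos it moved by 2.19 for Zfp708, 1.55 for Zfp809 and 1.47 for Zfp988, and by -1.50 for Zfp791, -1.42 for Zfp866 and -1.11 for Zfp952. Of 18 alternatives each, the differences of Zfp952, Zfp940 and Zfp986 at the first step missed the threshold in 8, 14 and 15, and those of Zfp809 and Zfp952 at the second step in 11 and 5. Those of Zfp708, Zfp791, Zfp866 and Zfp988 at the second step missed it in 0.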

How the results depend on the processing

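Counts of members called changed with the processing. Without library weights, 25 members in oocytes, 18 in MII eggs, 25 in late 1-cell embryos and 62 in early 2-cell embryos were called in place of 43, 40, 54 and 37, and with only the stages compared in the fit 22, 26, 31 and 22. Without a filter on low values, 26 in place of 45 were called in late 2-cell embryos, 1 in place of 0 for the effect from MII eggs to late 1-cell embryos, and 22 in place of 40 between lineages. From oocytes to MII eggs, TPM scaling and centring each gave 3 calls in place of 5, no weights 0 and only the stages compared 1. From MII eggs to late 1-cell embryos, centring gave 57 in place of 35 and no weights 10. The 9 members whose effect differed from late 1-cell to early 2-cell embryos became 2 at a pseudocount of 0.1, 4 with TPM and 2 with only the stages compared. Under centring 5 were up and 4 down. The 26 from early to late 2-cell embryos became 13 at a pseudocount of 0.1, 16 with no filter, 17 with TPM (12 up, 5 down), 44 without weights and 17 with only the stages compared. Leaving out 1 library gave 26 to 41 calls in oocytes, 31 to 49 in late 1-cell and 22 to 34 in early 2-cell embryos, 0 to 3 from oocytes to MII eggs, 16 to 25 from MII eggs to late 1-cell embryos, 2 to 8 for the effect from late 1-cell to early 2-cell embryos, and 20 to 38 between lineages. The fits with fewer libraries hold fewer samples; without weights, simulated early 2-cell libraries gave mostly false calls; otherwise the cause was not tested.

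With the replicate number as a block, 29, 37, 42, 26 and 33 members were called between genotypes from oocytes to late 2-cell embryos, 2 and 14 differed in effect at the last steps, and 24 between lineages; the counts of the other comparisons stayed within 1.5 times. Same-numbered embryonic day 6.5 libraries had deviations that correlated at 0.587 in epiblast and 0.424 in visceral endoderm. With 2 libraries in each group the second pair must repeat the value of the first, so it adds nothing. Of 1193 values of members named in the text under an alternative, 987 stayed on their side of the threshold, 195 lost the call, 8 gained one and 3 changed sign, all of Zfp809 in oocytes, which was not called: it ran from -0.29 to 0.12 on leaving out 1 library and was 0.049 with the block. FPKM without counts gives no depth, so no limit for low members can be stated.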
